A study of Mus musculus with 15 samples.

Results

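The interferon regulatory factors (IRF) were examined as 8 genes, *Irf1*, *Irf2*, *Irf3*, *Irf4*, *Irf5*, *Irf7*, *Irf8* and *Irf9*, taken by their symbols from the 20089 complete gene rows of an RNA-seq expression table. The cells were bone marrow derived macrophages (BMDM) of wild-type C57BL/6 mice, which are grown out of marrow with the growth factor M-CSF. There were 5 groups with 3 replicates each, and all of them received M-CSF: a control with M-CSF alone, M-CSF with RANKL for 4 h or 3 days, and M-CSF with LPS for 4 h or 3 days. RANKL is the cytokine that turns such macrophages into osteoclasts, the cells that resorb bone, and LPS is the bacterial cell wall component sensed by TLR4. The groups hold no M-CSF culture of 3 days, so time in culture and the agent cannot be told apart in a comparison of a 3 d group with the control. The labels do not say whether replicates were separate animals or cultures, and p-values then measure only the spread between these samples.

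IRF proteins share a DNA-binding domain that recognises GAAA repeats in the promoters of interferons and of the genes that interferons induce. IRF3 and IRF7 are phosphorylated after pathogen sensing and switch on the type I interferon genes, IRF5 drives inflammatory cytokine genes downstream of MyD88, and IRF9 is the DNA-binding subunit of the complex that answers type I interferon. IRF1 is an activator induced by interferon gamma and by inflammatory signals, and IRF2 binds the same elements and restrains it. IRF4 and IRF8 belong to blood cells, bind together with partners such as PU.1 (*Spi1*) and BATF, and shape dendritic cell, B cell and macrophage identity. In osteoclast precursors IRF8 is known as a repressor that holds down *Nfatc1*, the master regulator of the osteoclast, and that is lost as RANKL acts.

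Values are FPKM, that is, fragments scaled by the length of the transcript and the depth of the library, so levels of different genes may be compared. Each library held between 18306377 and 20330303 fragments assigned to genes (median 19351378). A gene was called higher or lower when its fold was above 1.5 or below 0.66 with an adjusted p under 0.05, in a limma fit of log2(FPKM + 0.1) over all 15 libraries and the 11743 genes whose mean reached 0.1 FPKM. All 8 factors passed that filter. Fold changes are on the log2(FPKM + 0.1) scale, and the added 0.1 makes them too small for genes near 0. LPS 3 d replicate 3 stood apart from the other libraries of its group: the median chi-square of a gene between it and replicates 1 and 2 was 46.3 and 31.5 times that of repeat sampling, against 7.73 times between replicates 1 and 2. The median tested gene shifted by -0.52 (log2) at LPS 4 h and by 0.16 at RANKL 3 d against control, and the changes below should be read relative to these shifts. In bulk libraries such as these, fewer cells of a type and less RNA per cell cannot be told apart.

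The promoters of 4 factors are shown because the results below turn on these genes. The sequences are the 250 bases before a RefSeq start of each gene (GRCm38.p6), 5′ to 3′ on the strand of the gene, in lower case. Gene spans given below are from another annotation, GENCODE M21. The windows of *Irf2* and *Irf7* reach past the GENCODE start into these spans. Capitals mark matches to 3 motifs searched on both strands: the core of an IRF element (GAAANNGAA), the interferon gamma-activated GAS element (TTCNNNGAA) and the kappaB consensus. The windows are chr11:53769764-53770013 on the plus strand for *Irf1*, chr8:46739495-46739744 on the plus strand for *Irf2*, chr7:141266425-141266674 on the minus strand for *Irf7*, and chr8:120736108-120736357 on the plus strand for *Irf8*.
Irf1: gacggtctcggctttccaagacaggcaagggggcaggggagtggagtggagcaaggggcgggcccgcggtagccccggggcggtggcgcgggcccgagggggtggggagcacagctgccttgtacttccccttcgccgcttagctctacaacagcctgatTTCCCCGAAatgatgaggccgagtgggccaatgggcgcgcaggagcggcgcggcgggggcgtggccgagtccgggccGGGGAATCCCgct
Irf2: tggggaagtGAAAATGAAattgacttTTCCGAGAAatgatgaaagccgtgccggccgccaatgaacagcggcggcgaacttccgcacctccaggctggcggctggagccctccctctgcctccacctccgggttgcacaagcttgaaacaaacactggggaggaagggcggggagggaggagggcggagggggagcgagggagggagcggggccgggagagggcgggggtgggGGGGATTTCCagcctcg
Irf7: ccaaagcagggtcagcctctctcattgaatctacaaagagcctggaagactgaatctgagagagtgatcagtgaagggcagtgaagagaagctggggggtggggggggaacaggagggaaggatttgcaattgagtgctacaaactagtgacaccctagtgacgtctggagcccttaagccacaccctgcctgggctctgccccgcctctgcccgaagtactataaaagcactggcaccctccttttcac
Irf8: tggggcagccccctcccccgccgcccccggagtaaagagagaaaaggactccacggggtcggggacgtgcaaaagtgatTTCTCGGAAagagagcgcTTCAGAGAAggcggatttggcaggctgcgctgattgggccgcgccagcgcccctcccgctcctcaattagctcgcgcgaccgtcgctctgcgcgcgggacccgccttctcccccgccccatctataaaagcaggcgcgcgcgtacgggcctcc
The *Irf1* window held a GAS match 90 to 82 bases before the start and a kappaB match 13 to 4 bases before it. The *Irf2* window held an IRF element 241 to 233, a GAS match 224 to 216 and a kappaB match 17 to 8 bases before the start. A pair of GAS matches stood in the *Irf8* window, 171 to 163 and 153 to 145 bases before the start. A further start of *Irf1* (window chr11:53770223-53770472) and of *Irf8* (chr8:120738389-120738638) had no match in its window. No match to the 3 motifs was found in the window of *Irf7*, nor in those of *Irf3*, *Irf4*, *Irf5* and *Irf9*, which says only that these letters are not in those windows. No matches overlapped each other. Of 32851 mouse promoters of the same length, 7.13% held the IRF element, 7.02% held GAS and 3.90% held kappaB, and a match is a description, not a site.

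At RANKL 4 h none of the 8 factors was called, while 0.111% of all tested genes were higher and 0.00852% lower, which is 14 genes in all, or 24 with the replicate number as a block. By limma, none of the 8 had an unadjusted p under 0.05 either, against 583 of the 11743 genes. At RANKL 3 d 4 of 8 fell (*Irf4*, *Irf5*, *Irf7* and *Irf8*) and none rose, beside 7.54% of all genes lower and 16.6% higher. At LPS 4 h 1 rose (*Irf1*) and 1 fell (*Irf3*), beside 8.43% of all genes higher and 39.7% lower. At LPS 3 d 1 fell (*Irf4*) and none rose, beside 14.4% lower and 13.0% higher. The median log2 fold change of the 8 factors was -0.16 at RANKL 4 h, -0.78 at RANKL 3 d, 0.07 at LPS 4 h and -0.25 at LPS 3 d. The median over all tested genes was 0.00, 0.16, -0.52 and 0.08 in the same order. These 4 comparisons share the control libraries.

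**Figure D1:**
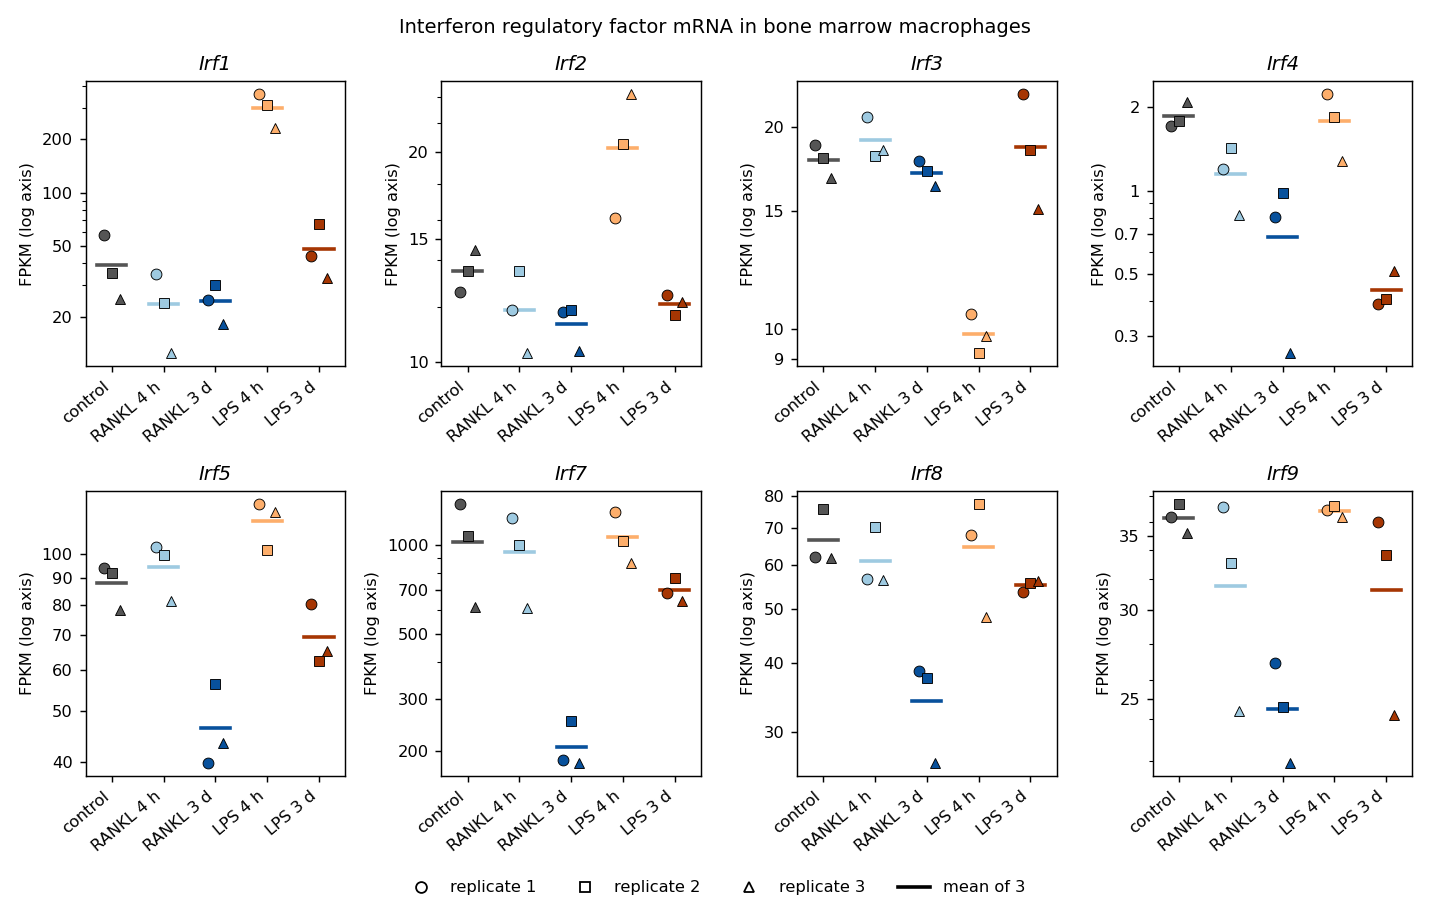
FPKM of the 8 factors (log axes) in each of the 15 libraries, by group; the symbol gives the replicate and the bar the mean of 3. The LPS 4 h libraries stand above all others for *Irf1* (232 to 359) and below all others for *Irf3* (9.18 to 10.5), and the RANKL 3 d libraries stand below all others for *Irf5*, *Irf7* and *Irf8*.

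*Irf7*, the interferon-inducible amplifier of the type I interferon response, had the highest level of the family in every library. It lies at chr7:141262706-141266481 on the minus strand (GRCm38), where the annotation also places *Phrf1* on the other strand. *Irf7* stood at 1379.6, 1068 and 617 FPKM in the controls, 1234, 996 and 608 at RANKL 4 h, and 186, 252 and 182 at RANKL 3 d. It stood at 1295, 1033 and 869.9 FPKM at LPS 4 h and 684, 773 and 645 at LPS 3 d. The RANKL 3 d values lay below every other library, while the remaining groups overlapped with the spread of the controls. *Irf7* fell 4.75-fold at RANKL 3 d (log2 fold change -2.25, SE 0.29, adjusted p = 1.36e-04). Its log2 fold changes of -0.09 at RANKL 4 h, 0.12 at LPS 4 h and -0.47 at LPS 3 d were not called, with 95% intervals of -0.73 to 0.54, -0.51 to 0.75 and -1.10 to 0.16. *Phrf1* on the other strand had a log2 fold change of 0.29 at RANKL 3 d (adjusted p = 0.166). *Irf7* made up 72.6 to 83.0% of the summed FPKM of the 8 factors in the controls and 53.6 to 58.5% at RANKL 3 d, and the sum itself was 851 to 1663 FPKM in the controls and 319 to 430.2 at RANKL 3 d.

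*Irf3*, the constitutively made factor that acts with IRF7 on the interferon beta gene, lies at chr7:44997648-45002848 on the plus strand and overlaps *Bcl2l12* on the other strand. Its FPKM values were 18.8, 18.0 and 16.8 in the controls, 20.7, 18.1 and 18.5 at RANKL 4 h, 17.8, 17.2 and 16.3 at RANKL 3 d, 10.5, 9.18 and 9.74 at LPS 4 h, and 22.4, 18.5 and 15.1 at LPS 3 d. The 12 libraries outside LPS 4 h lay between 15.1 and 22.4 FPKM, all above those of LPS 4 h. *Irf3* fell 1.81-fold at LPS 4 h (log2 fold change -0.86, SE 0.13, adjusted p = 8.56e-05), and with each library centred on its median gene the fall was -0.29 and was not called (adjusted p = 0.0803). *Bcl2l12*, whose reads cannot be told from those of *Irf3* where the genes overlap unless strand was counted, fell as well at LPS 4 h (log2 fold change -1.31, adjusted p = 7.92e-05).

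*Irf5*, the factor of inflammatory cytokine genes, lies at chr6:29526625-29541871 on the plus strand and overlaps *Tnpo3* on the other strand. It was at 93.9, 92.2 and 78.1 FPKM in the controls, 103, 99.4 and 81.4 at RANKL 4 h, 39.8, 56.3 and 43.5 at RANKL 3 d, 125, 102 and 120.5 at LPS 4 h, and 80.3, 62.3 and 65.2 at LPS 3 d. The RANKL 3 d libraries were the lowest 3 of the 15. *Irf5* fell 1.90-fold at RANKL 3 d (log2 fold change -0.93, SE 0.15, adjusted p = 6.51e-04), where *Tnpo3* had 0.36 (adjusted p = 0.115). At LPS 4 h its log2 fold change of 0.39 passed the test (adjusted p = 0.0380) and missed the fold threshold, and after centring on the median gene it was 0.96 and called. At LPS 3 d it was -0.35 (95% interval -0.68 to -0.02, adjusted p = 0.0889).

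*Irf1* lies at chr11:53770014-53778374 on the plus strand and overlaps the predicted gene *Gm17334* on the other strand. It was at 57.4, 35.1 and 25.1 FPKM in the controls and at 359, 312 and 232 at LPS 4 h. The other groups held 34.6, 23.8 and 12.4 at RANKL 4 h, 24.9, 30.2 and 18.1 at RANKL 3 d, and 44.0, 66.9 and 33.1 at LPS 3 d, and these overlapped with the controls. *Irf1* rose 7.99-fold at LPS 4 h (log2 fold change 3.00, SE 0.38, adjusted p = 1.94e-05), the largest change of the 8 factors in any comparison with control. At RANKL 3 d its log2 fold change of -0.63 was not called (adjusted p = 0.220), but it was called with the replicate number as a block (adjusted p = 0.0437). At RANKL 4 h and LPS 3 d it was -0.77 (95% interval -1.58 to 0.05) and 0.31 (-0.50 to 1.13). At RANKL 4 h *Irf1* was lower than in the control in each same-numbered pair, as were 22.3% of all tested genes. It was called there under 0 of 17 alternatives, the block among them.

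*Irf2*, the antagonist of *Irf1*, lies at chr8:46739732-46847458 on the plus strand, in whose span 3 predicted genes are annotated on the other strand. Its values were 12.6, 13.5 and 14.5 FPKM in the controls, 11.9, 13.5 and 10.3 at RANKL 4 h, 11.8, 11.9 and 10.4 at RANKL 3 d, 16.1, 20.5 and 24.2 at LPS 4 h, and 12.5, 11.7 and 12.2 at LPS 3 d. The LPS 4 h libraries were the highest 3 of the 15. There its log2 fold change of 0.56 against control passed the test (adjusted p = 0.00465) and missed the fold threshold, and centring on the median gene took it to 1.13 and past it. The change was also past the fold threshold without control replicate 3 (0.61) or LPS 4 h replicate 1 (0.72). Against the other groups at hand *Irf2* was 1.68-fold lower at RANKL 4 h and 1.64-fold lower at LPS 3 d than at LPS 4 h. The ratio of *Irf1* to *Irf2* FPKM, activator over antagonist, was 4.55, 2.61 and 1.72 in the controls and 22.3, 15.2 and 9.59 at LPS 4 h. It was 2.90, 1.76 and 1.20 at RANKL 4 h, 2.11, 2.53 and 1.73 at RANKL 3 d and 3.53, 5.70 and 2.72 at LPS 3 d, and every LPS 4 h ratio lay above these.

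*Irf9*, the DNA-binding subunit named above, lies at chr14:55603571-55610030 on the plus strand and overlaps *Rnf31* on the same strand. It was at 36.4, 37.4 and 35.2 FPKM in the controls, 37.1, 33.1 and 24.4 at RANKL 4 h, 26.9, 24.6 and 21.9 at RANKL 3 d, 36.9, 37.2 and 36.4 at LPS 4 h, and 36.0, 33.6 and 24.2 at LPS 3 d. The RANKL 3 d libraries did not overlap with the controls. Their difference of -0.57 (log2, SE 0.16, adjusted p = 0.0168) passed the test and missed the fold threshold, which it passed after centring on the median gene (-0.79) and without RANKL 3 d replicate 1 (-0.65). The log2 fold change at LPS 4 h was 0.02 (95% interval -0.33 to 0.37), and it was 0.59 and called after centring. *Rnf31* fell at RANKL 3 d (log2 fold change -0.79) and rose at LPS 4 h (1.24), and reads in the shared stretch cannot be assigned by strand.

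*Irf8*, the repressor of osteoclast formation, lies at chr8:120736358-120756694 on the plus strand and overlaps the predicted gene *Gm20388* on the same strand. It was at 62.1, 75.8 and 61.7 FPKM in the controls, 56.7, 70.3 and 56.3 at RANKL 4 h, 38.7, 37.5 and 26.4 at RANKL 3 d, 68.0, 77.4 and 48.3 at LPS 4 h, and 53.7, 55.7 and 56.2 at LPS 3 d. The highest RANKL 3 d library lay below the lowest of the other 12. *Irf8* fell 1.96-fold at RANKL 3 d (log2 fold change -0.97, SE 0.18, adjusted p = 0.00146). It was not called at RANKL 4 h (-0.12, 95% interval -0.51 to 0.26), LPS 4 h (-0.06, -0.45 to 0.32) or LPS 3 d (-0.26, -0.65 to 0.12), and at LPS 4 h centring on the median gene turned its sign (0.50, not called). The transcript was still at 26.4 FPKM or above in the RANKL 3 d cultures.

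*Irf4*, the factor of activated B cells, plasma cells and some dendritic cells, lies at chr13:30749226-30766976 on the plus strand with no overlapping gene. It had the lowest level of the 8, with 25 to 219 fragments per library, and counting error weighs more here than for the other factors. It was at 1.71, 1.78 and 2.09 FPKM in the controls, 1.20, 1.43 and 0.815 at RANKL 4 h, 0.801, 0.977 and 0.259 at RANKL 3 d, 2.23, 1.84 and 1.28 at LPS 4 h, and 0.392, 0.406 and 0.513 at LPS 3 d. Both 3 d groups lay below every control. *Irf4* fell 2.78-fold at RANKL 3 d (log2 fold change -1.47, SE 0.35, adjusted p = 0.00703) and 3.66-fold at LPS 3 d (-1.87, SE 0.35, adjusted p = 0.00123). Its log2 fold change at LPS 4 h was -0.09 (95% interval -0.85 to 0.67), with the sign turned by centring on the median gene (0.48, not called).

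Many markers of other marrow cells were also lower in the 3 d groups. Over all tested genes, 7.54% were lower and 16.6% higher at RANKL 3 d. The shares at LPS 3 d were 14.4% lower and 13.0% higher. The 9 dendritic cell markers summed to 21.7 to 50.8 FPKM in the controls, 12.0 to 25.6 at RANKL 3 d and 2.68 to 5.33 at LPS 3 d, with 5 of 9 lower at RANKL 3 d, 6 of 9 lower at LPS 3 d, and *Cd209a* and *Siglech* at 0 in all 3 libraries of LPS 3 d. At RANKL 3 d 7 of the 9 were lower and 2 higher than the control in all 3 same-numbered pairs. The 2 were *Itgax* (mean 11.1 to 16.6 FPKM) and *Cd209a* (0.136 to 0.390), and neither rise was called. The 7 B cell markers summed to 17.3 to 22.0 FPKM in the controls, 5.31 to 8.45 at RANKL 3 d and 0.994 to 2.72 at LPS 3 d, with 5 and 6 lower. Of the 4 plasma cell markers, 3 were tested and 2 were lower in each 3 d group. The other tested marker, *Sdc1*, went the other way and was not called. Its mean was 15.6 FPKM in the controls, 33.2 at RANKL 3 d and 35.5 at LPS 3 d. With the replicate number as a block, 1 marker was called higher in each. The 4 markers summed to 9.92 to 34.3 FPKM in the controls, 29.1 to 40.2 at RANKL 3 d and 16.8 to 50.5 at LPS 3 d. The sum of the 8 granulocyte precursor markers was 4759 to 14197 FPKM in the controls, 999 to 4150.0 at RANKL 3 d and 119 to 1115 at LPS 3 d, with 5 and 8 lower. The part of these cells in the falls of *Irf4* and *Irf8* was not tested. Of the 8 stromal cell markers 6 were called higher and 0 lower at RANKL 3 d. All 8 summed to 388 to 1818 FPKM there, against 139 to 307 in the controls. *Dcn* went down, from a mean of 1.63 FPKM in the controls to 0.700 at RANKL 3 d. It was lower than the control in all 3 same-numbered pairs. The blocked fit called 1 stromal cell marker lower. *Lum* did not rise, with means of 0.187 and 0.146 FPKM. The 8 macrophage markers, all detected in every group, summed to 7360.3 to 9075 FPKM in the controls and 10879 to 16232 at RANKL 3 d, with 1 of 8 higher and 1 lower. *Lyz2* alone held 5175 to 6585 and 8669 to 14044 FPKM of these sums. *Fcgr1* went from a mean of 298 to 51.4 FPKM. In all same-numbered pairs at RANKL 3 d 4 of the 8 were higher and 3 lower than the control. The 1 called rise and 1 called fall among the 8 are near the shares of all genes and are no result about these markers. Pairs were not counted over all genes at RANKL 3 d, so the pair counts of markers have no background. The 6 T and NK cell markers never summed to more than 10.5 FPKM.

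**Figure D2:**
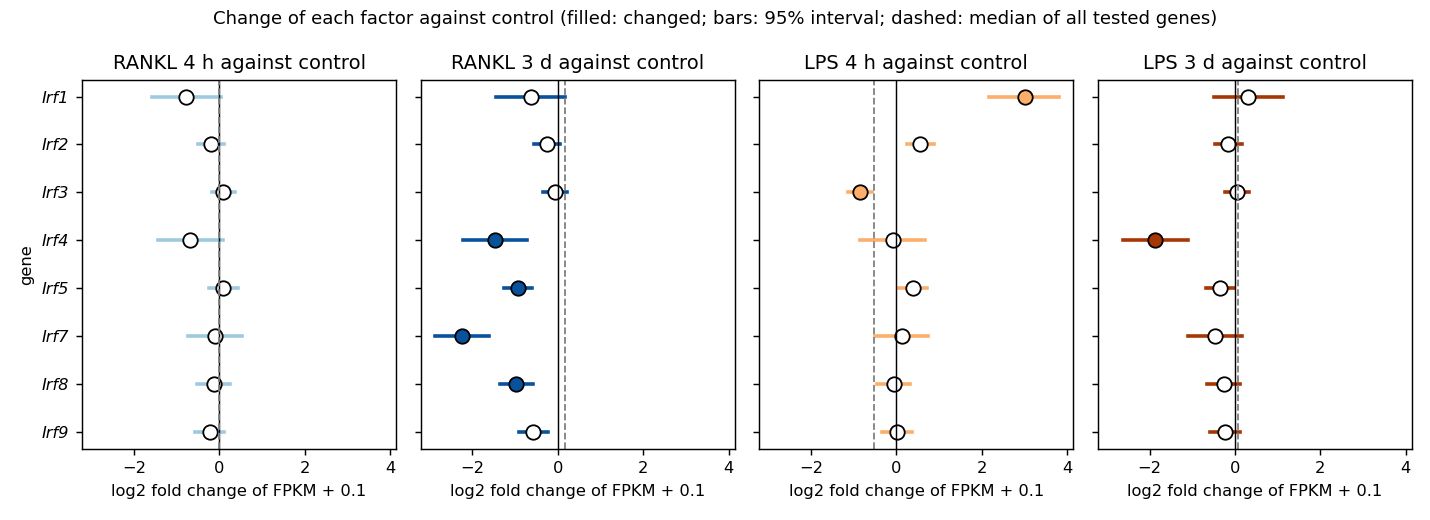
Log2 fold change of FPKM + 0.1 of each factor in each treated group against control, from the limma fit; bars are 95% intervals, filled points were called, and the dashed line is the median of all tested genes. *Irf7* lies farthest to the left at RANKL 3 d (-2.25) and *Irf1* farthest to the right at LPS 4 h (3.00).

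Set against each other at the same time, RANKL and LPS parted *Irf1*, *Irf2* and *Irf3* at 4 h and *Irf7* and *Irf8* at 3 days. At 4 h, *Irf1* was 13.6-fold lower with RANKL than with LPS (log2 difference -3.76, SE 0.38, adjusted p = 2.43e-06) and *Irf2* was lower by a log2 difference of -0.75 (adjusted p = 5.94e-04). *Irf3* was 1.94-fold higher with RANKL (0.95, adjusted p = 3.46e-05), a difference of 0.39 that was not called after centring on the median gene. These are 2 of 8 lower and 1 higher, beside 8.98% of all genes lower and 41.0% higher, and the median over all genes was 0.53. At 3 days, *Irf7* was 3.42-fold lower with RANKL (-1.78, SE 0.29, adjusted p = 2.72e-04) and *Irf8* 1.64-fold lower (-0.71, SE 0.18, adjusted p = 0.00560). Without RANKL 3 d replicate 3 the *Irf8* difference was -0.53 and missed the fold threshold. *Irf5* differed by -0.58 (adjusted p = 0.00713) and just missed the fold threshold, while *Irf1* differed by -0.94 (adjusted p = 0.0556). These are 2 of 8 lower and none higher, beside 12.8% of all genes lower and 23.3% higher. Without LPS 3 d replicate 3, the library that stood apart, *Irf1* (-1.18) and *Irf5* (-0.62) were called too, which made 4 of 8. *Irf4* fell below control in both 3 d groups, and the difference between them was 0.40 (95% interval -0.36 to 1.16).

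Between 4 h and 3 days of RANKL, *Irf7* fell 4.45-fold (log2 difference -2.15, adjusted p = 1.80e-04), *Irf5* 2.04-fold (-1.03, adjusted p = 3.31e-04) and *Irf8* 1.80-fold (-0.85, adjusted p = 0.00353). These 3 of 8 stand beside 6.83% of all genes lower and 16.4% higher. Between 4 h and 3 days of LPS, *Irf1* fell 6.42-fold (-2.68, adjusted p = 3.16e-05), *Irf4* 3.45-fold (-1.78), *Irf5* 1.68-fold (-0.75) and *Irf2* 1.64-fold (-0.72, or -0.58 and short of the fold threshold without LPS 4 h replicate 3). *Irf3* rose 1.88-fold (0.91, adjusted p = 3.67e-05), which centring on the median gene took to 0.26 and below the threshold. These 4 lower and 1 higher of 8 stand beside 13.9% of all genes lower and 44.2% higher, with a median over all genes of 0.52.

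In the order of group means, neighbouring groups were mostly not separated. For *Irf1* LPS 4 h came first and differed from LPS 3 d, the next. For *Irf3* LPS 4 h came last and, without centring, differed from RANKL 3 d, its neighbour. For *Irf7* and *Irf8* RANKL 3 d came last and differed from LPS 3 d, the neighbour above it. *Irf2* at LPS 4 h and *Irf5* at RANKL 3 d passed the test against their neighbours and missed the fold threshold. No other neighbours in these orders were called as different, including all of those of *Irf4* and *Irf9*.

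Of the interferon genes themselves, 20 were in the table and 2 had enough signal to test. *Ifnb1*, interferon beta, had 64, 31 and 10 fragments in the controls, 67, 11 and 7 at RANKL 4 h, 2, 1 and 1 at RANKL 3 d, 797, 350 and 205 at LPS 4 h, and 1, 0 and 0 at LPS 3 d. It rose at LPS 4 h (log2 fold change 3.72, SE 0.73, adjusted p = 6.38e-04), and it fell at RANKL 3 d (-3.30, adjusted p = 0.00435) and LPS 3 d (adjusted p = 0.00104). With 4 and 1 fragments left in all 3 libraries of those groups against 105 in the controls, its level per library fragment was 4.00% (exact 95% interval 1.07 to 10.6%) and 0.969% (0.0243 to 5.52%) of that in the controls, intervals that cover counting error only. In the control, RANKL 4 h and LPS 4 h groups replicate 1 was highest and replicate 3 lowest for *Ifnb1*, *Irf1* and *Irf7* alike. *Ifng*, interferon gamma, rose at LPS 4 h (3.79, adjusted p = 1.60e-04) from a mean of 0.0918 to 2.97 FPKM. Of the 6 interferon receptor genes, *Ifnar1* (log2 fold change 0.66) and *Ifngr1* (0.88) rose at RANKL 3 d, and *Ifngr1* (-1.02) and *Il10rb* (-0.86) fell at LPS 4 h. Of all tested genes, 16.6% rose at RANKL 3 d and 39.7% fell at LPS 4 h. The 2 falls among 6 at LPS 4 h are near that background and are no result about these genes. The median of the receptor genes was 0.17 and -0.22 in these groups.

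Over all tested genes, 16.6% rose and 7.54% fell at RANKL 3 d. The shares were 8.43% and 39.7% at LPS 4 h, and 13.0% and 14.4% at LPS 3 d. Many interferon-induced genes fell at RANKL 3 d and rose at LPS 4 h. Of 25 listed, 23 were in the table and tested: 15 fell and none rose at RANKL 3 d, 13 rose and none fell at LPS 4 h, 1 rose and 10 fell at LPS 3 d, and none was called at RANKL 4 h. Their median log2 fold change was -1.59 at RANKL 3 d, 2.06 at LPS 4 h, -1.10 at LPS 3 d and -0.45 at RANKL 4 h, beside the medians over all genes given above. At RANKL 4 h none was called with the replicate number as a block either (lowest adjusted p = 0.357, limma). In a count chosen after the values were seen, 19 of the 23 were lower at RANKL 4 h than in the same-numbered control in all 3 pairs, as were 22.3% of all tested genes. *Ifit2*, an RNA-binding antiviral gene, was at 360.0, 180.0 and 59.8 FPKM in the controls and at 174, 69.0 and 16.3 at RANKL 4 h, so the groups overlapped while each pair had the lower value after RANKL. The chemokine *Cxcl10* had the largest rise at LPS 4 h (7.25, SE 0.82, adjusted p = 7.56e-06), from 114, 24.1 and 11.8 FPKM in the controls to 5227, 4885 and 4559. The chemokine *Ccl5* had the largest fall at RANKL 3 d (-3.58, adjusted p = 6.72e-04), from 757, 359.7 and 133 FPKM to 35.9, 35.1 and 16.7. It was the gene that rose at LPS 3 d (3.20, adjusted p = 0.00105). There *Ifit2* had the largest fall on the log2(FPKM + 0.1) scale (-3.10, adjusted p = 0.00529). That scale makes falls near 0 too small, as for *Ciita*, with 59, 87 and 38 fragments in the controls and 1, 4 and 1 at LPS 3 d. The summed FPKM of the list was 2289.6 to 7091 in the controls, 999 to 1364 at RANKL 3 d, 20015 to 21572 at LPS 4 h and 3668 to 6208 at LPS 3 d. *Irf7*, itself interferon-inducible, had a called fall at RANKL 3 d and no called change at LPS 4 h, where the list sum stood above every control.

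**Figure D3:**
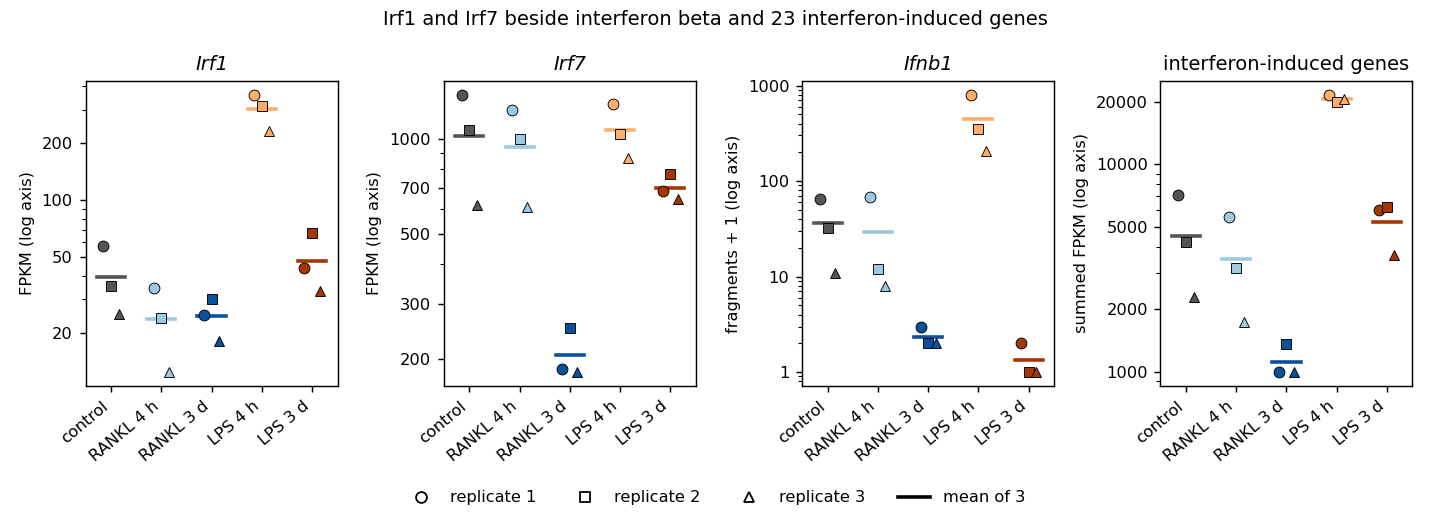
*Irf1* and *Irf7* (FPKM), *Ifnb1* (fragments plus 1) and the summed FPKM of the interferon-induced genes in each library, on log axes; symbols give the replicate and bars the mean of 3. At LPS 4 h *Irf1*, *Ifnb1* and the sum stand above all other libraries, while *Irf7* (869.9 to 1295) overlaps with the controls (617 to 1379.6).

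Upstream of the factors, 18 genes of the pathways that activate IRF proteins were listed and tested. At RANKL 3 d 3 rose and 3 fell, at LPS 4 h 5 rose and 7 fell, at LPS 3 d 3 rose and 4 fell, and at RANKL 4 h none was called. Of all tested genes, 16.6% rose and 7.54% fell at RANKL 3 d, 8.43% and 39.7% at LPS 4 h, and 13.0% and 14.4% at LPS 3 d. The share of the 18 that fell at LPS 4 h was near that of all genes and is no result about this list. The RNA sensor *Ifih1* rose most at LPS 4 h (log2 fold change 2.55, adjusted p = 7.67e-06), and *Mavs*, the adaptor that the same sensor uses, fell most (-1.90, adjusted p = 7.03e-07). At RANKL 3 d *Traf3*, an adaptor of interferon induction, had the largest rise (1.06) and *Ifih1* the largest fall (-1.16). The list median was -0.13 at RANKL 3 d, 0.10 at LPS 4 h and 0.08 at LPS 3 d.

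Among 10 genes for proteins that bind DNA together with IRF proteins, 5 fell and none rose at RANKL 3 d: *Spib* (-2.96), *Stat2* (-1.54), *Batf3* (-1.38), *Batf2* (-1.37) and *Batf* (-1.16). At LPS 4 h *Batf2* (2.91), *Batf* (2.26) and the zinc finger gene *Ikzf1* (1.29) rose, and *Nfatc2* (-3.21) and *Batf3* (-1.42) fell. Of all tested genes, 7.54% fell at RANKL 3 d, and 8.43% rose and 39.7% fell at LPS 4 h. At LPS 3 d 13.0% rose and 14.4% fell. *Batf*, a partner of IRF4 and IRF8, was at 16.8, 15.5 and 14.1 FPKM in the controls, 7.35, 6.96 and 6.25 at RANKL 3 d, 94.3, 70.7 and 61.3 at LPS 4 h and 46.3, 41.7 and 26.4 at LPS 3 d, and these groups did not overlap with the controls. *Spi1*, which encodes PU.1, had log2 fold changes between -0.00 and 0.57 and was not called in the comparisons with control. At LPS 3 d *Batf* rose (1.26) and *Spib* (-4.61), *Batf3* (-2.19) and *Ikzf1* (-0.63) fell. The list median was -0.90 at RANKL 3 d, 0.52 at LPS 4 h and -0.62 at LPS 3 d. *Spib* is also a gene of B cells and plasmacytoid dendritic cells, and many B cell and dendritic cell markers fell in the same groups.

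Of 9 genes for cofactors and inhibitors, 3 fell at RANKL 3 d, beside 7.54% of all tested genes. They were *Socs1* (-2.30), an inhibitor of interferon receptor signalling, *Trim21* (-0.86), a ubiquitin ligase, and *Irf2bpl* (-0.61). At LPS 4 h *Socs1* (4.30, adjusted p = 4.22e-05) and *Trim21* (1.82) rose, while *Irf2bp2* (-1.46), *Irf2bp1* (-1.29) and *Irf2bpl* (-0.97), which form the family of IRF2-binding corepressors, fell. With 39.7% of all tested genes lower there, 3 falls among 9 genes are near the background and are no result about these genes. The 2 rises at LPS 4 h stand beside 8.43% of all tested genes higher. At LPS 3 d *Irf2bp1* fell (-0.65) and no other of the 9 was called, beside 14.4% of all tested genes lower. The median of the 9 genes was -0.27, -0.52 and -0.09 at RANKL 3 d, LPS 4 h and LPS 3 d.

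The osteoclast programme that IRF8 is known to restrain rose at RANKL 3 d. Of 10 listed osteoclast genes, 9 rose and none fell there, beside 16.6% of all tested genes higher and 7.54% lower. The median log2 fold change of the 10 was 5.07, and none of them was called at RANKL 4 h. The calcitonin receptor gene *Calcr*, at 0 in every control, was at least 327-fold higher against a floor of 3 fragments over the group, and with it at that bound the median was 5.18. Apart from *Calcr*, the immune receptor gene *Oscar* had the largest rise (7.86, adjusted p = 3.69e-07), and *Itgb3*, the integrin beta chain of the osteoclast, the smallest called one (1.32). *Nfatc1* was at 6.24, 7.67 and 9.31 FPKM in the controls and 45.3, 25.2 and 62.2 at RANKL 3 d (2.42, SE 0.26, adjusted p = 2.85e-05), and it fell at LPS 4 h (-1.19, adjusted p = 0.00148). *Ocstamp*, needed for osteoclast fusion, went from 0.381, 0.432 and 0.179 FPKM to 35.5, 21.1 and 69.5 (6.50, adjusted p = 3.93e-07). RANKL 3 d replicate 3 had the lowest *Irf8* of all libraries (26.4 FPKM) and the highest *Nfatc1* and *Ocstamp* (62.2 and 69.5), while replicates 1 and 2, with like *Irf8* of 38.7 and 37.5, differed in both genes. At LPS 3 d, *Ctsk* rose (1.68), and *Itgb3* (-2.09) and *Atp6v0d2* (-1.52) fell.

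Of 6 regulators in the circuit around *Irf8*, *Prdm1*, the repressor that acts on *Irf8* in osteoclast precursors, rose at RANKL 3 d (2.50, SE 0.28, adjusted p = 4.30e-05), from 1.40, 0.967 and 1.32 FPKM to 8.08, 4.28 and 11.5. *Prdm1* also rose at LPS 4 h (2.33, adjusted p = 1.39e-05), to 6.49, 7.07 and 6.06 FPKM, where *Irf8* was not called. *Dnmt3a*, a DNA methyltransferase that acts on the *Irf8* locus in osteoclasts, rose at RANKL 3 d (0.70, adjusted p = 0.0102) and fell at LPS 4 h (-1.63) and LPS 3 d (-1.61). Among 6 myeloid targets of IRF8, *Klf4* rose at RANKL 3 d (1.30), *Il12b* (7.44) and *Cybb* (1.28) rose at LPS 4 h, and none fell in either. Of all tested genes, 16.6% rose at RANKL 3 d and 8.43% at LPS 4 h. The 1 rise among 6 at RANKL 3 d is near that background and is no result about the targets. The median of the regulators was 0.20 at RANKL 3 d and 0.77 at LPS 4 h, and that of the targets 0.01 and 0.08.

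**Figure D4:**
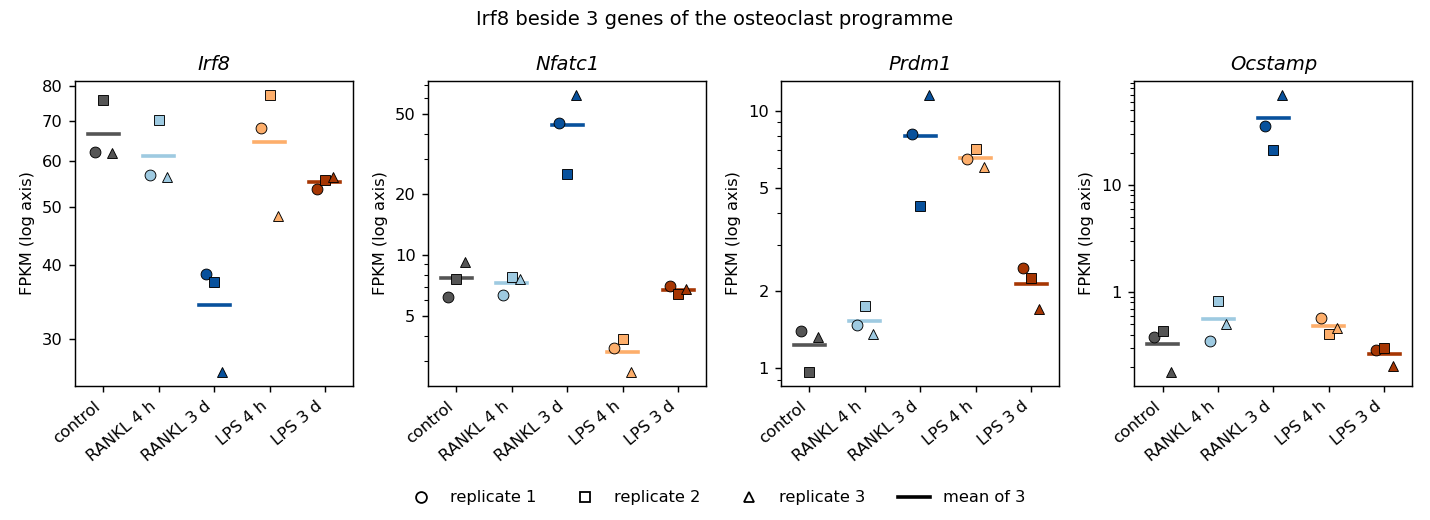
FPKM of *Irf8*, *Nfatc1*, *Prdm1* and *Ocstamp* (log axes) in each library; symbols give the replicate and bars the mean of 3. At RANKL 3 d *Irf8* is lowest (26.4 to 38.7) and *Nfatc1* (25.2 to 62.2) and *Ocstamp* (21.1 to 69.5) are highest, and *Prdm1* is raised at both RANKL 3 d and LPS 4 h.

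**Figure D5:**
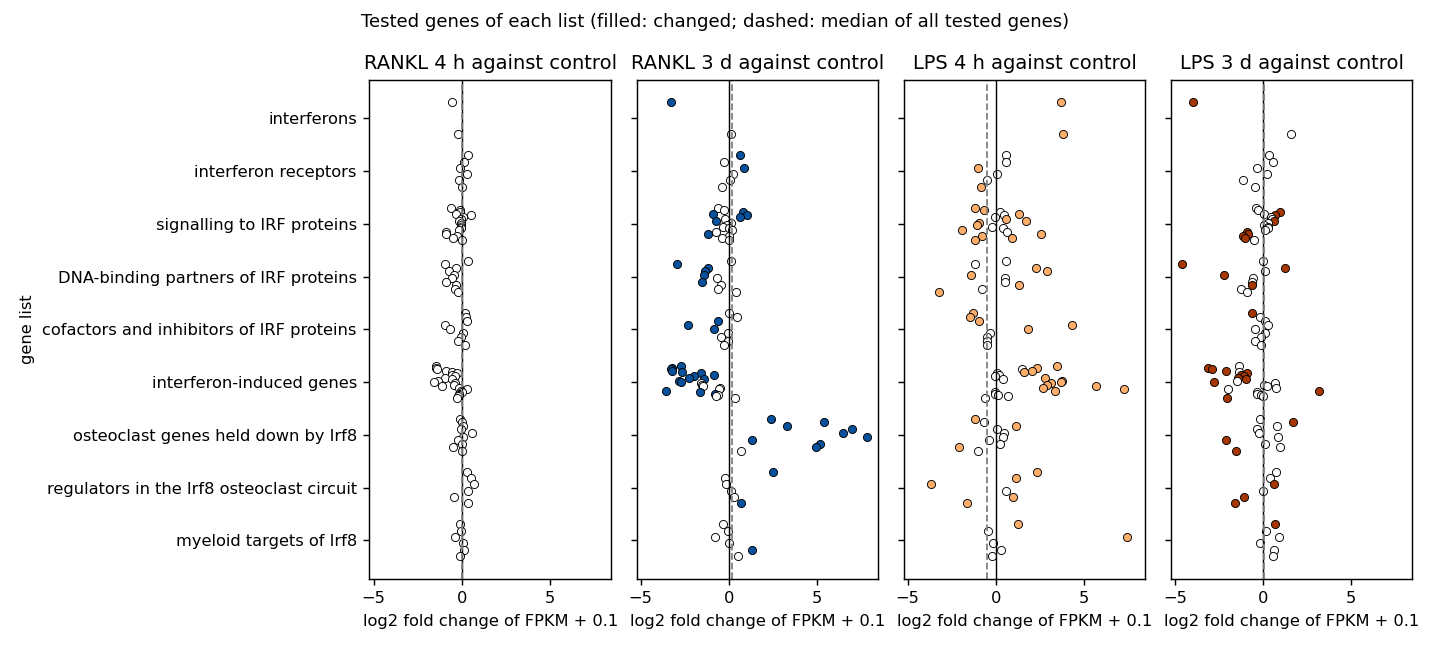
Log2 fold change of FPKM + 0.1 against control of the tested genes in each pathway list, 1 point a gene; filled points were called and the dashed line is the median of all tested genes. The interferon-induced genes lie mostly left of 0 at RANKL 3 d (median -1.59) and right of 0 at LPS 4 h (2.06), and the osteoclast genes lie right of 0 at RANKL 3 d (5.07).

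The genes most like each called factor over the 15 libraries were found among 9486 genes whose mean reached 1 FPKM, by the root-mean-square difference of log2(FPKM + 0.1) after centring each gene on its own mean. *Irf7* was closest to *Fcgr1* (0.24), *Bst2* (0.28) and *Fcgr4* (0.30), against a root-mean-square of its own of 0.94. *Irf1* was closest to *Enpp4* (0.30), *Il15ra* (0.33) and *Batf2* (0.35), against 1.43 of its own. *Irf8* was closest to *Rab8b* (0.19), *Cln3* (0.22) and *Shisa5* (0.22), against 0.40. *Irf5* was closest to *Sgcb* (0.18), *Cd47* (0.22) and *Pik3ap1* (0.22), against 0.48. *Irf4* was closest to *Napsa* (0.31), *Gm1966* (0.34) and *Coro2a* (0.42), against 0.83, and *Irf3* to *Maf1* (0.08), *Ino80b* (0.10) and *Pdcd7* (0.10), against 0.38. All genes share the same libraries, so likeness includes what sets libraries apart.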

How the data were processed

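RNA of the 15 BMDM cultures was sequenced with a SMARTer kit. The deposited values are FPKM per gene and sample, made by the authors with StringTie and Ballgown (builds GRCm38.p4 and mm10 in the submitters' processing notes). The aligner, versions and strand setting are not given in the sources used here. The table was read up to its last complete row (20089 genes, 4453 at 0 in every sample), and genes later in the alphabet were not analysed here. Columns were matched to samples by name, and each sample's group came from its labels.

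FPKM of a gene are whole multiples of what 1 fragment is worth, and 100.0% of values above 0, over 14485 genes above 0 in at least 3 samples, lay within 0.01 of a whole fragment, which gave 18306377 to 20330303 fragments per sample. All 5 groups were fitted at once with limma 3.58.1 (R 4.3.3, eBayes with trend) on log2(FPKM + 0.1), for genes whose mean reached 0.1 FPKM, with Benjamini-Hochberg adjustment over all 11743 of them. The study's fold thresholds of 1.5 and 0.66 were kept, with an adjusted in place of an unadjusted p under 0.05. The fit was tested on simulated data. Alternatives covered pseudocounts 1 and 0.01, filters, scalings, the groups in the fit, the replicate number as a block, the variance model, voom on fragments, the unadjusted p and each replicate left out.

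Same-numbered samples carry no stated common source. Their deviations from the group means correlated over 9486 genes at 0.71 to 0.84 for RANKL 4 h and control, 0.14 to 0.32 for RANKL 3 d and control, 0.44 to 0.62 for LPS 4 h and control, 0.55 to 0.69 for RANKL 4 h and LPS 4 h, and 0.16 to 0.25 for RANKL 3 d and RANKL 4 h. In these 5 comparisons the numbers were taken to pair the samples. The main fit held no block, so its SE, intervals, p-values and calls do not use this pairing. It entered only in the alternative with the replicate number as a block and in counts of same-numbered pairs. In the 3 with LPS 3 d not every pair was above 0.1.

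The 8 factors, the gene lists and the marker lists were chosen with earlier results of these data known. Every factor was named. Of each list, the highest and lowest called genes of a comparison were named, or any gene where the list holds up to 10. *Nfatc1*, *Ocstamp*, *Prdm1* and the overlapping genes in the annotation (GENCODE M21, GRCm38) were also followed, and *Ciita* was named for its few fragments. Genes most alike were the 3 nearest to each factor called against control. A few genes are not reported here by name.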

Additional observations from a re-analysis of the deposited data

Results flagged for a closer look

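The effects at 4 h and at 3 days of the same agent differed by a direct test for several factors, with the control as the common reference. For RANKL the difference, 3 days less 4 h, was -1.03 (log2) for *Irf5*, -2.15 for *Irf7* and -0.85 for *Irf8*. For LPS it was -2.68 for *Irf1*, -0.72 for *Irf2*, 0.91 for *Irf3*, -1.78 for *Irf4* and -0.75 for *Irf5*. Groups of 3 are too small for a test of single outlying samples.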

How the results depend on the processing

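Of 1088 values for single factors under the alternatives, 1054 kept their side of the threshold, 29 passed it newly and 5 lost it. A called direction turned in 0. Values that were not called could turn their sign and are counted among the 1054, such as *Irf8* at LPS 4 h (-0.21 to 0.50). The falls of *Irf4*, *Irf5*, *Irf7* and *Irf8* at RANKL 3 d, the rise of *Irf1* at LPS 4 h and the fall of *Irf4* at LPS 3 d were called under all 17 alternatives. Centring each library on its median gene changed the number of factors called to 4 at LPS 4 h against control (4 higher and 0 lower), to 6 for RANKL 4 h against LPS 4 h (all lower) and to 4 for RANKL 3 d against LPS 3 d. It also changed the split of all genes called higher and lower from 990 and 4660 to 1871 and 1529 at LPS 4 h, from 1951 and 886 to 1167 and 1428 at RANKL 3 d, from 4818 and 1054 to 1580 and 1905 for RANKL 4 h against LPS 4 h, from 2739 and 1506 to 2237 and 2045 for RANKL 3 d against LPS 3 d, from 1930 and 802 to 1141 and 1351 for RANKL 3 d against RANKL 4 h, and from 5186 and 1631 to 2209 and 3224 for LPS 3 d against LPS 4 h. Between LPS 4 h and LPS 3 d centring called *Irf7* (-1.24), *Irf8* (-0.85) and *Irf9* (-0.91) as lower.

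Leaving out 1 replicate gave 0 factors called at RANKL 4 h against control, 4 to 5 at RANKL 3 d, 2 to 3 at LPS 4 h and 1 to 2 at LPS 3 d, 3 for RANKL 4 h against LPS 4 h, 2 to 4 for RANKL 3 d against LPS 3 d, 3 to 4 for RANKL 3 d against RANKL 4 h and 4 to 5 for LPS 3 d against LPS 4 h. The 2 at LPS 3 d came without control replicate 3, where *Irf7* was called (-0.80), and the 4 for RANKL 3 d against LPS 3 d came without LPS 3 d replicate 3. The cause was not tested. Without RANKL 3 d replicate 3, *Irf4* was called higher at RANKL 3 d than at LPS 3 d (0.88).

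With the replicate number as a block, 5 factors were called at RANKL 3 d against control and 3 for RANKL 3 d against LPS 3 d, in both with *Irf1* added (adjusted p = 0.0437 and 0.00392), and the block changed no other call on a factor. At RANKL 4 h against control, 14 genes of all were called, against 24 with the block, 0 with only these groups in the fit, 3 without the variance trend, 1 to 15 with a replicate left out and 301 at an unadjusted p. After centring, 3400 genes in place of 5650 were called at LPS 4 h against control, and 3485 in place of 5872 for RANKL 4 h against LPS 4 h.

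*Irf4* had 25 to 219 fragments per library, and depth limits it most.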
